A study of Mus musculus with 4 samples.

Results

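The genes that encode the cytosolic translation factors were examined in cultured mouse FGSCs, the female germline stem cells that are derived from ovary. They were taken by name, as protein-coding genes whose symbol starts with Eif or Eef and a digit, with Etf1, Gspt1 and Pabpc1 added, 1 row per symbol on a primary chromosome. This gave 67 of the 12701 genes in the deposited table, and every one of the 67 entered the test. RNA-seq had been run on FGSCs infected with lentivirus encoding a short hairpin RNA, either a control one (shNC, 2 libraries) or one directed at Gm26917, a long non-coding RNA (shGm26917, 2 libraries). Both groups were thus infected cells of the labelled FGSC line, and no uninfected library was compared. The study speaks of biological replicates for its profiling of these cells. The sources used here do not say whether that means cultures grown apart, and p-values therefore reflect only how far these libraries differ among themselves. The study measured global protein synthesis after this knockdown, and the comparison asks which mRNAs of the translation machinery differed in level.

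Translation starts when eIF2, loaded with GTP and the initiator tRNA, joins the small ribosomal subunit together with eIF1, eIF1A, eIF3 and eIF5, and this complex is brought to the capped mRNA by eIF4E, eIF4G and the helicase eIF4A. Each round leaves eIF2 with GDP, and the exchange factor eIF2B, built of alpha to epsilon subunits, reloads it. This step is blocked when kinases phosphorylate eIF2 alpha. The 4E-binding proteins hold eIF4E away from eIF4G until the kinase mTORC1 phosphorylates them. Elongation is driven by eEF1A and eEF2, and eRF1 (Etf1) with eRF3 (Gspt1) ends it at the stop codon.

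The study lists 3 target sequences of 19 bases for shGm26917, but the sources used here do not say which of them the sequenced cells carried. They are shown because a hairpin can act on other transcripts that carry its target.
shGm26917 target 1: gcgtttgctctctcgtcta
shGm26917 target 2: gctccaatagcgtatatta
shGm26917 target 3: gcgatttgtctggttaatt
None of the 3 had an exact match, on either strand, in the 436 annotated transcripts of the 67 genes (0 matches). The longest exact runs shared with any of these transcripts were 11, 10 and 11 bases. Mismatched sites were not searched.

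Values are CPM, reads scaled to a common library size, and levels compared between genes are given per kilobase of annotated exon. At the targeted locus, Gm26917 had 155 and 157 CPM with shNC and 136 and 104 CPM with shGm26917 and was not called (limma, adjusted p = 0.0696), while the adjacent Gm42418 fell from 3172 to 708 CPM on average (log2 fold change -2.16, adjusted p = 5.57e-05). Of 14 germline markers 4 were listed, with summed levels of 1376 and 1311 CPM with shNC and 1290 and 1248 CPM with shGm26917, of which Kit made up 1279, 1203, 1228 and 1187 CPM. Ifitm3 was the only one called, and it fell (-0.81, adjusted p = 0.000902). The 10 others, among them Ddx4 and Dazl, were not listed, so no level could be read for them. Mast cell markers, 6 of 12 listed, included Kit again, so its CPM enters the germline and the mast cell sum alike. They summed to 2719 and 2696 CPM with shNC and to 2532 and 2564 CPM with shGm26917. Among them Cpa3 rose (log2 fold change 0.59) and Il1rl1, Gata2 and Ms4a2 fell (-1.46, -0.33 and -2.06), and Ms4a2 was at 0 CPM in 1 shGm26917 library. Fibroblast markers, 7 of 8 listed, were at 475 and 497 CPM against 421 and 409 CPM. Of these, Col3a1 rose (0.44), Thy1 and Prrx1 fell (-0.78 and -0.62), and the other 4 were not called. Granulosa cell markers, 2 of 8, were at 44.5 and 48.4 CPM against 23.4 and 21.9 CPM. Both of them, Inhba and Fst, fell (-1.04 and -0.92). Macrophage markers, 3 of 6, were at 170 to 194 CPM against 166 to 171 CPM. Of the macrophage markers Cd68 fell, from 40.6 and 39.4 CPM to 24.0 and 25.1 CPM (-0.69, adjusted p = 0.000961), while Adgre1, most of that sum, was not called. The part of these differences in the results was not tested. In such bulk libraries, a change in the make-up of the cells and a change of mRNA within each cell cannot be told apart.

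In all, 4 translation factor genes rose and 5 fell after knockdown, and 58 were not called. The genes that rose were the 4E-binding protein gene Eif4ebp2, the eEF1A methyltransferase gene Eef1aknmt, the eIF2 alpha kinase gene Eif2ak2 and the release factor gene Gspt1. The genes that fell were Eif2b2 and Eif2b1, which encode the beta and alpha subunits of eIF2B, the helicase gene Eif4a1, the eIF2 beta subunit gene Eif2s2 and the eIF3 subunit gene Eif3j2. Calls used limma on log2(CPM + 0.5) with an adjusted p under 0.05 over all genes, and fold changes are on that scale, which understates the change of low genes. Called genes made up 13.4% of the 67, against 23.1% of all genes, with 5.97% higher and 7.46% lower against 11.6% and 11.5% of all genes. The translation factors were therefore called at a lower share than the table as a whole. The counts depended on the libraries. Both rose when either shNC library was left out and fell when either shGm26917 library was left out. The counts over all genes moved the same way. Leaving out shNC replicate 1 added Eif4g1, Eif4g3, Eef2k, Eef1akmt4 and Eif3j1 to the genes called higher and Eif1, Eif3m and Eif4a2 to those called lower. Leaving out shNC replicate 2 added Eef1akmt3 to the former and Eef1d, Eif3b, Eif4h, Eif5, Eif5a, Eif5b and Eif6 to the latter.

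**Figure D1:**
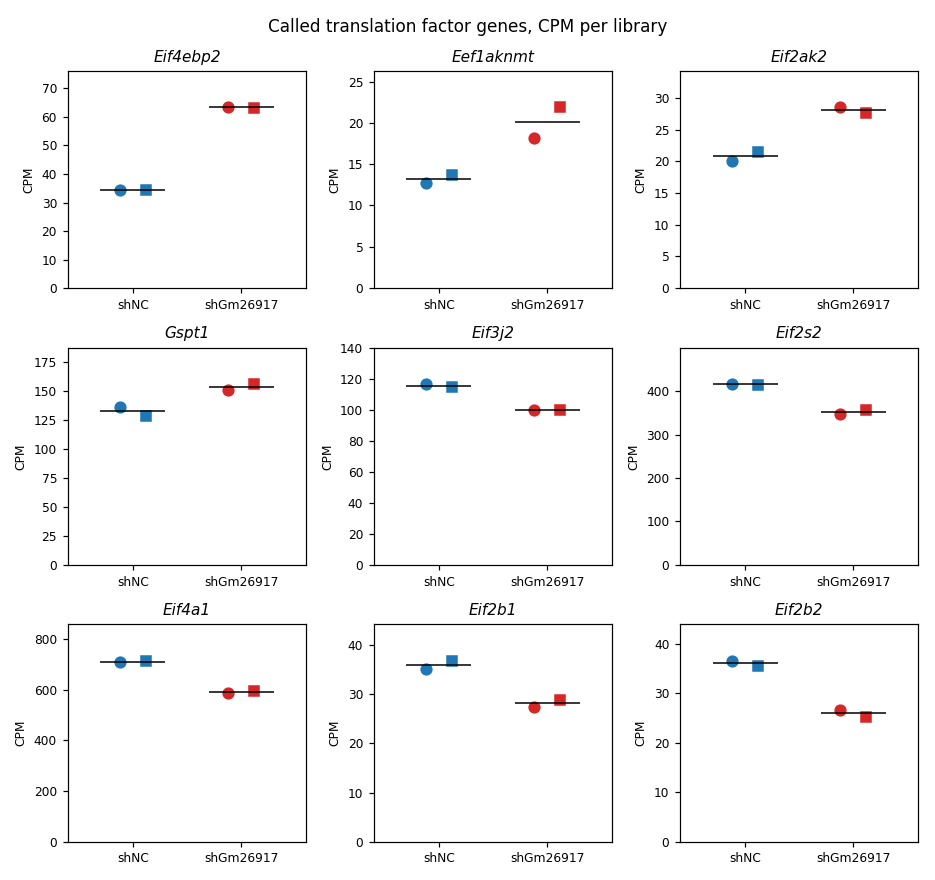
CPM (vertical axis, from 0) of the 9 called translation factor genes in the 2 shNC libraries (blue) and the 2 shGm26917 libraries (red), with circles for replicate 1, squares for replicate 2 and black lines at the group means. In each panel the groups do not overlap, and the largest change relative to the shNC mean is that of Eif4ebp2, from about 34.4 to 63.3 CPM.

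More of the 67 genes lay below 0 than above it, called or not. The log2 fold change was below 0 for 44 of them (65.7%; 40 with upper-quartile scaling), against 50.9% of all genes, and the median was -0.04, against -0.0058 for all genes. Without shNC replicate 1, 39 were below 0 and the median was -0.013, and without shNC replicate 2 they were 47 and -0.072. The shNC and shGm26917 libraries did not overlap for 15 genes that were higher (22.4%, against 31.5% of all genes) and for 28 that were lower (41.8%, against 32.7%). Among the 21 translation factor genes that averaged 200 CPM or more, 18 were below 0 (85.7%; 16 with upper-quartile scaling and 14 without shNC replicate 1), and among all 496 protein-coding genes at that level 296 were (59.7%). The summed level of the 67 genes was 22497 and 21493 CPM with shNC and 20918 and 20852 CPM with shGm26917. Eef1a1 alone held 7399, 7178, 6941 and 6837 CPM of these sums.

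**Figure D2:**
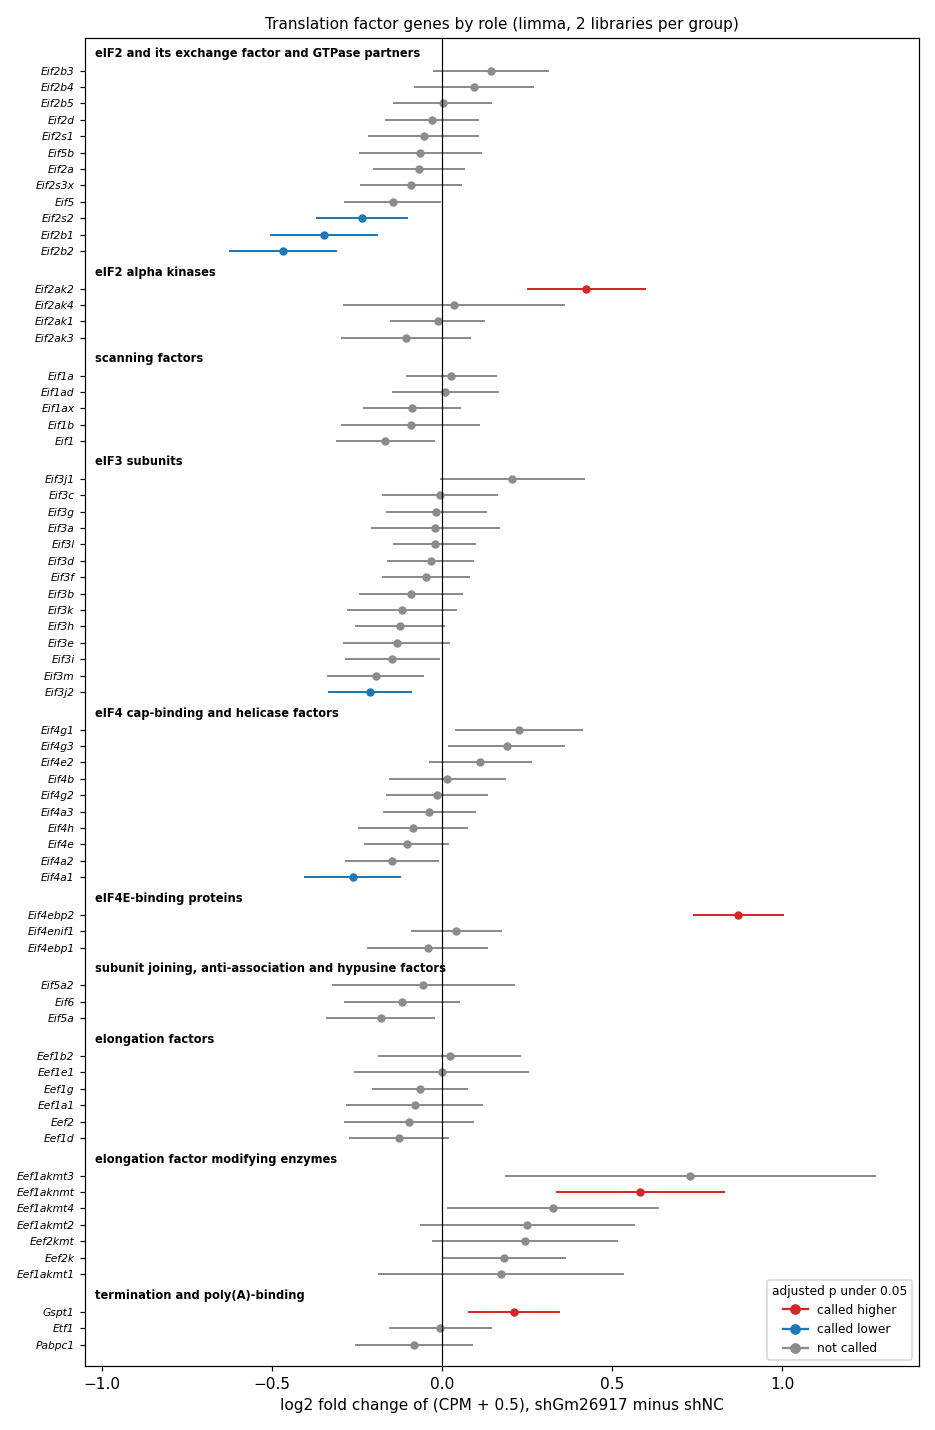
Log2 fold change of CPM + 0.5, shGm26917 minus shNC (horizontal axis), of all 67 translation factor genes grouped by role, with 95% intervals from limma, in red for called higher, blue for called lower and grey for not called. All 7 genes of the enzymes that modify elongation factors lie right of 0, and 13 of the 14 eIF3 subunit genes lie left of it (12 with upper-quartile scaling).

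Among the 3 genes for proteins that bind eIF4E, Eif4ebp2 rose and the other two were not called. Eif4ebp2 encodes a repressor of cap-dependent initiation. It stood at 34.3 and 34.5 CPM with shNC and at 63.5 and 63.2 CPM with shGm26917, means of 34.4 ± 0.14 and 63.3 ± 0.17 CPM (SD, n = 2). The libraries of a group were nearly alike, and the groups lay far apart, with a log2 fold change of 0.87 (95% interval 0.74 to 1.0, adjusted p = 0.000222). The call held under all 13 alternatives. Eif4ebp1, the related repressor, was at 71.5 and 80.6 CPM with shNC and at 70.6 and 76.8 CPM with shGm26917, where the groups overlapped (log2 fold change -0.04, 95% interval -0.22 to 0.13, adjusted p = 0.714). Its target Eif4e, the cap-binding protein gene, had 123 and 124 CPM with shNC and 113 and 117 CPM with shGm26917 (log2 fold change -0.11, adjusted p = 0.186). Within each library, the ratio of Eif4ebp2 to Eif4ebp1 CPM was 0.48 and 0.43 in shNC and 0.90 and 0.82 in shGm26917, so that the less abundant transcript by CPM approached the other. The ratio of Eif4ebp2 to Eif4e was 0.28 in each shNC library and 0.56 and 0.54 in the shGm26917 libraries. Per kilobase of exon, Eif4ebp2 went from 5.95 to 10.95 CPM, and Eif4ebp1 stayed the higher of the pair, at 34.6 and 33.6 CPM. Eif4enif1, whose product carries eIF4E into the nucleus, was at 49.8 and 50.9 CPM against 51.7 and 52.0 CPM and was not called (adjusted p = 0.632).

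Of the 5 eIF2B subunit genes, 2 fell and 3 were not called. Eif2b2 had 36.6 and 35.5 CPM with shNC and 26.7 and 25.2 CPM with shGm26917, with means of 36.0 ± 0.80 and 25.9 ± 1.04 CPM (SD, n = 2). It fell by 0.47 on the log2 scale (95% interval -0.62 to -0.31, adjusted p = 0.00362), and this call held under all 13 alternatives. Eif2b1 had 35.2 and 36.8 CPM with shNC and 27.5 and 28.9 CPM with shGm26917, and fell by 0.35 (95% interval -0.50 to -0.19, adjusted p = 0.0107). For both genes each shGm26917 library was below each shNC library, but without shGm26917 replicate 1 Eif2b1 was not called (adjusted p = 0.056). The alpha, beta and delta subunits regulate the exchange factor, and epsilon, which carries out the exchange, works with gamma. Of these, the genes of delta, epsilon and gamma were not called. Eif2b5 was at 40.9 and 40.7 CPM with shNC and at 39.8 and 42.0 CPM with shGm26917, a log2 fold change of 0.0016 (95% interval -0.14 to 0.14, adjusted p = 0.987). Eif2b3, the gamma subunit gene, had 19.7 and 20.1 CPM against 22.2 and 21.8 CPM (log2 fold change 0.14, adjusted p = 0.193). Eif2b4, the delta subunit gene, had 24.7 and 22.8 CPM against 25.7 and 25.0 CPM (0.09, adjusted p = 0.399). Their group means were at or above those of shNC. As a ratio to Eif2b5 within the same library, Eif2b2 was at 0.89 and 0.87 in shNC and at 0.67 and 0.60 in shGm26917, and Eif2b1 at 0.86 and 0.91 against 0.69 in each shGm26917 library.

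Of the 3 subunits of eIF2 itself, only the beta subunit gene Eif2s2 was called in the test of all libraries. It stood at 417 and 415 CPM with shNC and at 348 and 357 CPM with shGm26917, and fell by 0.24 (95% interval -0.37 to -0.11, adjusted p = 0.0227). Leaving out either of the shGm26917 libraries ended this call (adjusted p = 0.154 without replicate 1 and 0.103 without replicate 2), and so did a fit without variance trend and robust moderation (0.0768). Eif2s1, which encodes the alpha subunit that the stress kinases phosphorylate, was at 181 and 178 CPM with shNC and at 163 and 183 CPM with shGm26917, where the groups overlapped (log2 fold change -0.05, adjusted p = 0.608). The gamma subunit gene Eif2s3x was not called (-0.09, adjusted p = 0.325). Of the partners, the gene of the GTPase-activating factor eIF5 had a log2 fold change of -0.15 (adjusted p = 0.117), and Eif5b, whose product joins the ribosomal subunits, one of -0.07 (adjusted p = 0.575). The 12 genes around eIF2, exchange factor and partners included, had a median of -0.07 (-0.036 without shNC replicate 1 and -0.11 without shNC replicate 2) and a summed level of 1994 and 1919 CPM with shNC and 1774 and 1793 CPM with shGm26917.

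Of the 4 eIF2 alpha kinase genes, 1 rose. Eif2ak2 encodes PKR, which is activated by double-stranded RNA and induced by interferon. It had 20.1 and 21.5 CPM with shNC and 28.6 and 27.6 CPM with shGm26917, means of 20.8 ± 1.03 and 28.1 ± 0.71 CPM (SD, n = 2), with a log2 fold change of 0.42 (95% interval 0.25 to 0.59, adjusted p = 0.00752). The call held under all 13 alternatives, and its exons overlap those of 2 genes on the opposite strand. The groups overlapped for the other three. Eif2ak1, the heme-regulated kinase gene, was at 45.3 and 44.4 CPM against 45.2 and 43.7 CPM (adjusted p = 0.888). Eif2ak3, the gene of the endoplasmic reticulum kinase PERK, was at 48.3 and 42.4 CPM against 43.9 and 40.1 CPM (adjusted p = 0.381). Eif2ak4, the gene of GCN2, which senses uncharged tRNA, was at 14.6 and 10.9 CPM against 12.4 and 13.5 CPM (adjusted p = 0.884).

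**Figure D3:**
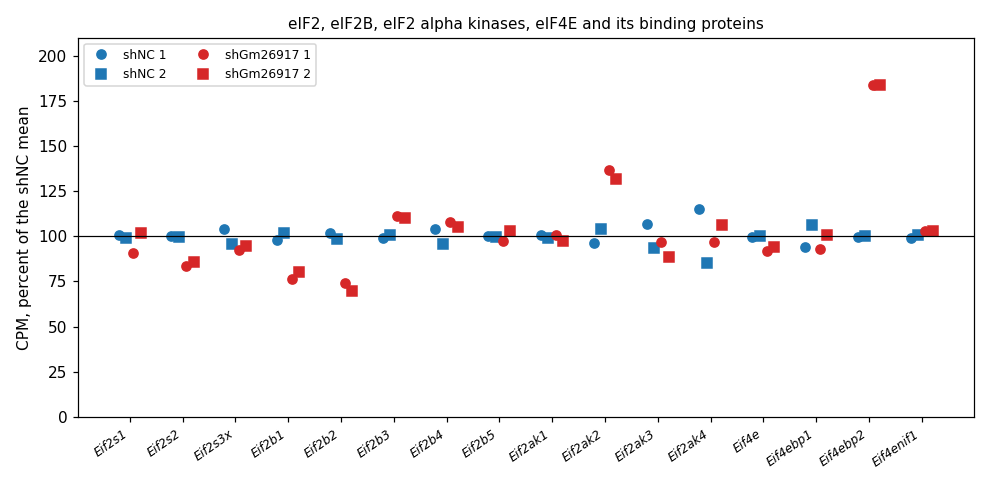
CPM of each library as a percent of the gene's shNC mean (vertical axis, from 0; line at 100) for the genes of eIF2, eIF2B, the eIF2 alpha kinases, eIF4E and its binding proteins, with shNC in blue and shGm26917 in red. In the shGm26917 libraries Eif4ebp2 was at 184% of the shNC mean, Eif2ak2 at 132% and 137%, Eif2b1 at 76.3% and 80.3% and Eif2b2 at 69.9% and 74.0%.

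Sequence upstream of and around the start site is shown for 7 of the called genes, 4 of which rose and 3 of which fell. Promoters of 300 bases (250 before and 50 after the start) came from RefSeq on GRCm38.p6 and were found for 52 of the 67 genes. The motifs were chosen after the values were seen, and 7 were searched on both strands. They were CACGTG, the E-box read by MYC and related factors, CCGGAAG, the core of ETS factor sites, a GAAA pair with 2 free bases between (from the interferon-stimulated response element, ISRE), and CRE, AP-1, CARE and SRE elements. Capitals mark a match to the motif or its reverse complement, positions count from 1 at the start site, and each sequence is written in the direction of the gene. The windows are Eif4ebp2 at chr10:61452761-61452820 (minus strand, -151 to -92), Eif2b1 at chr5:124579112-124579171 (minus strand, -40 to 20), Eif2b2 at chr12:85219451-85219510 (plus strand, -30 to 30), Eif2ak2 at chr17:78882543-78882602 (minus strand, -30 to 30), Gspt1 at chr16:11254433-11254492 (minus strand, -167 to -108), Eef1aknmt at chr1:162548460-162548519 (minus strand, -174 to -115) and Eif4a1 at chr11:69672580-69672639 (minus strand, -216 to -157).
Eif4ebp2: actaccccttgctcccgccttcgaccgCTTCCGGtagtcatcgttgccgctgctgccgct
Eif2b1: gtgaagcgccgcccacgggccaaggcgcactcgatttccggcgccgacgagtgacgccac
Eif2b2: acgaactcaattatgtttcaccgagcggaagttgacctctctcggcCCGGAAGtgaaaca
Eif2ak2: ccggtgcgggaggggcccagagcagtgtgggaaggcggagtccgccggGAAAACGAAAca
Gspt1: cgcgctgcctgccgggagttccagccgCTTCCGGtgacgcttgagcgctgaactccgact
Eef1aknmt: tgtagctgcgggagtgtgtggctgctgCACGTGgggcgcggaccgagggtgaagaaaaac
Eif4a1: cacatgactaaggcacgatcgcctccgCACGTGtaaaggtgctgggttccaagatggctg
CACGTG was in the promoters of 14 of the 52 genes (26.9%), against 8.09% of all 27025 genes with a promoter and 12% of the 9116 protein-coding genes of the expression table. It was found in Eif4e, Eif4g1, Eif4a1, Eif4h, Eif3a, Eif3f, Eif3k, Eif5a, Eif5a2, Eif1b, Eef2, Eef2k, Eef1akmt4 and Eef1aknmt, of which only Eif4a1 and Eef1aknmt were called, in opposite directions. CCGGAAG was in 18 of the 52 (34.6%), against 9.93% of all genes and 21.3% of those in the table, and its called carriers were Eif4ebp2 and Gspt1, which rose, and Eif2b2, which fell. The ISRE motif was in 4 (7.69%, against 3.99% and 3.66%), namely Eif2ak2, Eif2s1, Eif2s3x and Eif3a. In Eif2ak2 it lies from 19 to 28 downstream of the start. The others, TGACGTCA, TGANTCA, TGATGNAA and the SRE, were in 1, 5, 2 and 1 of the 52, against 2.03%, 8.97%, 4.51% and 0.0777% of all genes, and in 0 called genes. A match is a stretch of letters and not evidence of binding.

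Among the 10 genes of the cap-binding and helicase factors, Eif4a1 fell and the other 9 were not called. Eif4a1 encodes the main eIF4A helicase. It was at 707 and 714 CPM with shNC and at 589 and 595 CPM with shGm26917, with means of 711 ± 4.90 and 592 ± 4.8 CPM (SD, n = 2; log2 fold change -0.26, 95% interval -0.40 to -0.12, adjusted p = 0.0191). The groups were well separated, but the call was lost without either shGm26917 library (adjusted p = 0.114 and 0.102) and without variance trend and robust moderation (0.0601). Of its 50-base stretches 65.3% also occur in other genes, Eif4a-ps4 foremost, and its exons hold 2 small RNA genes, so its value may include reads of others. Eif4a2, the second helicase gene, had a log2 fold change of -0.15 (adjusted p = 0.107), and the sum of the pair was 1079 and 1101 CPM with shNC and 927 and 942 CPM with shGm26917. Eif4g1, the main scaffold gene, was at 336 and 288 CPM with shNC and at 362 and 365 CPM with shGm26917 (log2 fold change 0.23, 95% interval 0.04 to 0.41, adjusted p = 0.0807). The 2 shNC libraries of Eif4g1 were far apart, and without shNC replicate 1 it was called (0.34, adjusted p = 0.00175), as was Eif4g3, another scaffold gene (0.19, adjusted p = 0.0998 with all libraries; 0.29, adjusted p = 0.0041 without that library). The ratio of Eif4a1 to Eif4g1 CPM was 2.1 and 2.48 in shNC and 1.62 and 1.63 in shGm26917. Eif4g2, which encodes a scaffold that does not bind eIF4E, was at 901 and 893 CPM against 894 and 879 CPM, where the groups overlapped (-0.02, adjusted p = 0.874).

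Of the 14 eIF3 subunit genes, 1 was called lower and 0 higher, while 13 had log2 fold changes below 0 (12 with upper-quartile scaling and 10 without shNC replicate 1), with a median of -0.07 (-0.025 without that library and -0.046 without shGm26917 replicate 1). The 9 whose libraries did not overlap and that were lower (32.7% of all genes were) included Eif3m (-0.20, adjusted p = 0.0531), Eif3i (-0.15, adjusted p = 0.11) and Eif3e (-0.13, adjusted p = 0.183). Eif3a, the largest scaffold subunit of the complex, was at 746 and 649 CPM with shNC and at 696 and 676 CPM with shGm26917, so that its 2 shNC libraries enclosed the others (adjusted p = 0.877). The summed level of the 14 was 3068 and 2874 CPM with shNC and 2823 and 2852 CPM with shGm26917, a shift smaller than the gap between the shNC libraries. The called gene was Eif3j2, at 117 and 115 CPM with shNC and at 99.7 and 100.01 CPM with shGm26917 (log2 fold change -0.21, adjusted p = 0.0244). It is a near copy of Eif3j1, with 91.8% of its 50-base stretches found elsewhere, so the split of reads between the pair is uncertain. Eif3j1 went the other way without being called (0.21, adjusted p = 0.142), and the sum of the pair was 135 and 131 CPM with shNC and 120 and 119 CPM with shGm26917. The Eif3j2 call was lost without either shGm26917 library (adjusted p = 0.149 and 0.151) and without variance trend and robust moderation (0.0934).

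With all libraries, neither the scanning factors nor the factors that act at subunit joining and after it gave a call. Of the 5 scanning factor genes, Eif1, which guards start codon choice, had the largest difference. It was at 458 and 487 CPM with shNC and at 417 and 424 CPM with shGm26917 (-0.17, adjusted p = 0.0884). The Eif1 value was -0.21 without shNC replicate 1 and -0.12 without shNC replicate 2. Eif5a, whose product carries hypusine and helps ribosomes past stalling sites, was at 632 and 598 CPM with shNC and at 524 and 561 CPM with shGm26917. Its groups did not overlap (-0.18, 95% interval -0.34 to -0.02), yet it was not called (adjusted p = 0.0933), except without shNC replicate 2 (-0.22, adjusted p = 0.0233). Eif6, which keeps the large subunit from joining too early, was at 46.8 and 41.7 CPM against 40.4 and 40.9 CPM (-0.12, adjusted p = 0.272; called without shNC replicate 2, -0.20, adjusted p = 0.0494).

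The elongation factor genes had the highest summed CPM of the role groups, led by Eef1a1 and Eef2, and 0 of the 6 were called (limma; 0 also at an unadjusted p under 0.05). Eef1a1, which brings aminoacyl-tRNA to the ribosome, had a log2 fold change of -0.08 (95% interval -0.28 to 0.12, adjusted p = 0.528) and 2924 CPM per kilobase in shNC, against 609 for Eef2. Of the 50-base stretches of Eef1a1, 59.2% also occur in other genes, Gm13456 foremost, so its value may include reads of others. Eef2, the translocation factor gene, was at 2129 and 1919 CPM with shNC and at 1909 and 1867 CPM with shGm26917 (-0.10, 95% interval -0.29 to 0.09, adjusted p = 0.414). The Eef2 value rested on the shNC libraries, at -0.024 without shNC replicate 1 and -0.17 without shNC replicate 2 (adjusted p = 0.807 and 0.0584). Eef1d, another exchange factor subunit gene, was not called (-0.13, adjusted p = 0.18). The Eef1d value was -0.069 without shNC replicate 1 and -0.19 without shNC replicate 2. For Eef1a1 and Eef2 the shGm26917 libraries lay below the lower shNC library. Eef1b2, an exchange factor gene for eEF1A, was at 441 and 381 CPM against 393 and 441 CPM, where the groups overlapped (0.02, adjusted p = 0.886). The summed level of the 6 genes was 10680 and 10167 CPM with shNC and 9907 and 9815 CPM with shGm26917.

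The genes of the enzymes that modify elongation factors lay on the other side of 0. All 7 had log2 fold changes above 0, under every scaling and with each library left out. Their median was 0.25 (0.415 without shGm26917 replicate 1 and 0.227 without shGm26917 replicate 2). The libraries of 5 did not overlap, against 31.5% of all genes in that direction, and 1 was called, against 11.6%. Eef1aknmt, listed as Mettl13 in older annotation, encodes an enzyme that methylates the N-terminus and a lysine of eEF1A. It had 12.7 and 13.6 CPM with shNC and 18.2 and 21.9 CPM with shGm26917, means of 13.2 ± 0.63 and 20.1 ± 2.61 CPM (SD, n = 2; log2 fold change 0.58, 95% interval 0.34 to 0.83, adjusted p = 0.00874), and the call held under all 13 alternatives. Eef2k, which encodes the kinase that inhibits eEF2, was at 61.3 and 52.9 CPM with shNC and at 65.8 and 63.6 CPM with shGm26917 (0.18, adjusted p = 0.134). The Eef2k value was 0.29 without shNC replicate 1 and 0.076 without shNC replicate 2. The largest fitted change in this group, 0.73 for Eef1akmt3, rested on 0.58 and 1.09 CPM against 1.70 and 1.64 CPM and was not called (adjusted p = 0.0586). The remaining 4, Eef1akmt1, Eef1akmt2, Eef1akmt4 and Eef2kmt, lay between 0.17 and 0.33. Apart from Eef2k, these are among the lowest genes of the set, and the sum of the 7 was 99.5 and 93.0 CPM with shNC and 114 and 120 CPM with shGm26917. Exons of Eef1akmt3, Eef1akmt4, Eef2k and Eef2kmt overlap those of genes on the opposite strand. Those of Eef1akmt4 also overlap Gm49333 on the same strand. Of its 50-base stretches 31.7% occur in other genes, Gm49333 foremost, so its value may include reads of others.

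At termination, Gspt1 rose and Etf1 was not called. Gspt1, the eRF3 gene, was at 136 and 129 CPM with shNC and at 151 and 156 CPM with shGm26917 (log2 fold change 0.21, 95% interval 0.08 to 0.34, adjusted p = 0.0338). This call was lost without either shGm26917 library (adjusted p = 0.104 and 0.226) and without variance trend and robust moderation (0.113), and its exons overlap those of 1 gene on the opposite strand. Etf1, the eRF1 gene, was at 260 and 237 CPM with shNC and at 248 and 246 CPM with shGm26917 (-0.0054, 95% interval -0.15 to 0.14, adjusted p = 0.96). Their ratio was 0.53 and 0.54 in shNC and 0.61 and 0.63 in shGm26917. Pabpc1, the cytoplasmic poly(A)-binding protein gene, was at 1244 and 1179 CPM against 1184 and 1103 CPM, where the groups overlapped (-0.08, adjusted p = 0.445).

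**Figure D4:**
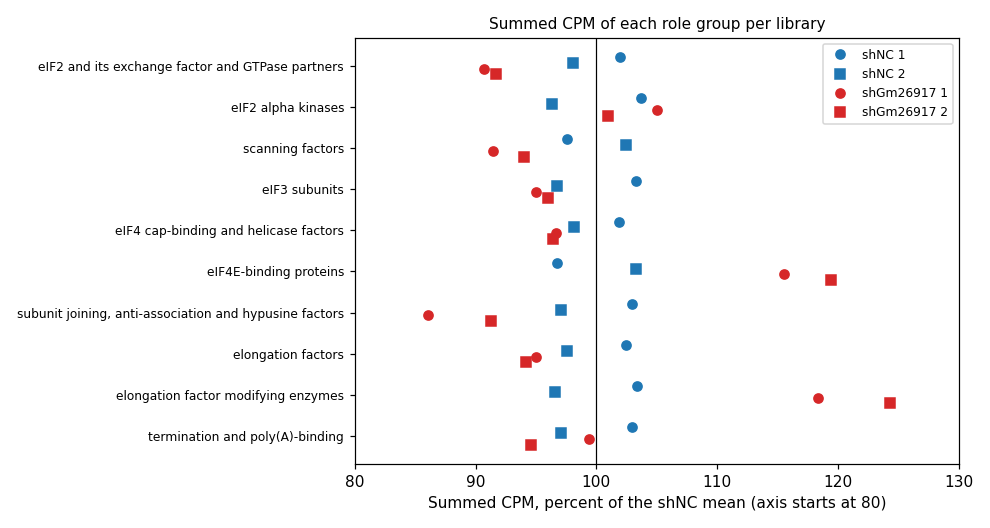
Summed CPM of each role group in each library as a percent of its shNC mean (horizontal axis, starting at 80; line at 100), with shNC in blue and shGm26917 in red. In the shGm26917 libraries, the sums of the eIF4E-binding proteins and of the elongation factor modifying enzymes lie above both shNC libraries. Those of the elongation factors, at 9907 and 9815 CPM, lie below them. So do those of eIF2 and its partners, the scanning, eIF3, cap-binding and helicase groups and the subunit joining group. The sums of the eIF2 alpha kinases and of the termination group overlap.

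Direction was also counted by how much sequence a gene shares with others, since RSEM divides such reads. Of the 14 translation factor genes with at least 20% of their 50-base stretches in other genes, 12 had log2 fold changes below 0 (85.7%, also under every scaling and with each library left out), and of the 38 with under 1%, 22 did (57.9%; 19 with upper-quartile scaling and 17 without shNC replicate 1). Among those 38 genes, 4 were called higher (Eif4ebp2, Eef1aknmt, Eif2ak2 and Gspt1) and 2 lower (Eif2b1 and Eif2b2). The other 3 genes called lower, Eif4a1, Eif2s2 and Eif3j2, share 65.3%, 27.8% and 91.8%. Some of the 14, among them Eef1a1, Eef1g, Eif1 and Eif4a1, also averaged 200 CPM or more. At that level 18 of 21 translation factor genes were below 0 (85.7%), so these counts do not separate sharing from level. Of all genes, at any level, 50.9% were below 0. The part of read sharing in these results was not tested.

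Other genes of translation and its control were read from 4 lists, which hold 59 genes. Around mTORC1 and the eIF4E kinases, 3 of 17 rose, 1 fell and 13 were not called, a share close to the 23.1% of all genes that were called. Larp1, which represses mRNAs with a 5′ oligopyrimidine tract, rose from 207 and 184 CPM to 265 and 260 CPM (log2 fold change 0.42, adjusted p = 0.00573), Mknk1, an eIF4E kinase gene, rose (0.33, adjusted p = 0.0119), and Rps6kb1, the S6 kinase gene, rose (0.22, adjusted p = 0.0336). Ddit4, whose product restrains mTORC1, fell from 64.0 and 52.0 CPM to 37.0 and 36.4 CPM (-0.65, adjusted p = 0.00413). Closest to the threshold among the others were Akt1s1 (-0.23, adjusted p = 0.0535) and Sesn2 (-0.17, adjusted p = 0.0694), whose products restrain mTORC1, and Pdcd4, which encodes an inhibitor of eIF4A (-0.23, adjusted p = 0.074). Mtor itself was not called (0.11, adjusted p = 0.422).

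Around the integrated stress response, 0 of 12 rose, 5 fell and 7 were not called, where 11.6% of all genes were called higher and 11.5% lower. Ppp1r15a, which encodes the stress-induced partner of the eIF2 alpha phosphatase, went from 118 and 117 CPM to 90.7 and 89.5 CPM (-0.38, adjusted p = 0.003). Ppp1ca, a catalytic subunit gene of that phosphatase, fell (-0.27, adjusted p = 0.015), as did Nck1, an adaptor gene (-0.38, adjusted p = 0.0118). Of the genes downstream of ATF4, Ddit3 (CHOP) fell by 0.23 (adjusted p = 0.0276) and Chac1 by 0.67, from 37.0 and 38.2 CPM to 24.7 and 22.4 CPM (adjusted p = 0.0016). Atf4, at 560 and 585 CPM with shNC and 530 in each shGm26917 library, was not called (-0.11, adjusted p = 0.22), nor were its targets Asns (0.11, adjusted p = 0.196) and Trib3 (0.02, adjusted p = 0.818), the related factor gene Atf5 (0.16, adjusted p = 0.155) and Gcn1, which encodes an activator of GCN2 (0.16, adjusted p = 0.14).

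Of 20 other translation-related genes, 5 rose, 0 fell and 15 were not called, where 11.6% of all genes were called higher and 11.5% lower. Those that rose were the RNA acetyltransferase gene Nat10 (0.39, adjusted p = 0.0131), the selenocysteine insertion factor gene Secisbp2 (0.32, adjusted p = 0.0414), the helicase gene Ddx3x (0.30, adjusted p = 0.0197), the poly(A)-associated gene Larp4 (0.22, adjusted p = 0.0214) and the ribosome rescue gene Hbs1l (0.19, adjusted p = 0.0452). Ddx3x was the most abundant of these, at 403 and 365 CPM with shNC and 465 and 479 CPM with shGm26917. Gspt2, the second eRF3 gene, was far below Gspt1, at 4.83 and 4.47 CPM against 5.93 and 6.80 CPM, and was not called (0.41, adjusted p = 0.0527). Of the mitochondrial translation factors, 9 of 10 were in the table, of which 1 rose and 2 fell, against 11.6% and 11.5% of all genes. Mtif2, the initiation factor gene, rose (0.42, adjusted p = 0.00609), and the elongation factor genes Gfm1 (-0.33, adjusted p = 0.00577) and Tufm (-0.32, adjusted p = 0.00783) fell, from 86.2 and 88.6 to 69.0 and 69.9 CPM and from 55.3 and 55.4 to 44.9 and 43.5 CPM.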

How the data were processed

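Total RNA from shNC and shGm26917 FGSCs, with 2 libraries each, had been sequenced with a commercial RNA-seq kit. Per the submitters' processing notes, the tools were Bowtie2 2.1.0, RSEM 1.2.28 and edgeR, on build mm10. The authors deposited CPM per gene and library based on RSEM, which divides reads that fit several genes among them, and genes with low values had been left out. The deposited table also holds the authors' fold changes and p-values, which were not used. Whether counting used strand is not stated in the sources used.

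Since counts were not given, CPM were analysed as log2(CPM + 0.5) with limma 3.58.1 (trend, robust) in R 4.3.3, shGm26917 minus shNC, and Benjamini-Hochberg adjustment ran over the 12701 genes. With 2 against 2 libraries, an exact two-sided permutation test cannot go below 0.333. Fitted read steps correspond to about 15900000 and 12900000 reads for shNC and 17900000 and 15800000 for shGm26917, but only 33.7% to 67.9% of values under 2 CPM lay within 0.02 of whole multiples, so reads were not recovered and the sizes are approximate. The script was tested on simulated data.

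Members, role groups and lists were chosen with earlier results of these data known. Per-library values are given for every called gene and for a set of main factors, and other members are given by count and range or by single values. Of the 4 lists of other translation genes, called genes are named and, per list, up to 3 others by smallest p. Mtor, Atf4 and Trib3 were named after their values were seen. Sequence motifs were also chosen then. Where a symbol had 2 rows on primary chromosomes (Ddit3), the higher was used. Sequence sharing was counted in stretches of 50 bases over GENCODE M21 transcripts. The 13 alternatives were upper-quartile and median-ratio scaling, pseudocounts of 0.1 and 1, library sizes that leave out mitochondrial genes, Gm26917 and Gm42418, a filter of 5 CPM in 2 libraries, primary chromosomes only, no trend or robust moderation, the replicate number as a block, and each library left out.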

Additional observations from a re-analysis of the deposited data

How the results depend on the processing

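The counts of 4 genes higher and 5 lower moved by at most 1 gene with the pseudocounts, scalings, filter and primary chromosomes only. Without trend and robust moderation 3 were higher and 2 lower. With the replicate block 8 were higher (7 lower), but with 2 pairs and a correlation of 0.112 between same-numbered deviations the libraries share only a number. With each library left out, 3 to 9 genes were higher and 1 to 12 lower. A lone library was then assumed to vary like the other group. The calls of Eif4ebp2, Eif2b2, Eif2ak2 and Eef1aknmt held under every alternative run. Sign changes touched only uncalled genes near 0. Upper-quartile scaling gave Eef1e1 0.013, Eif2ak1 0.00081, Eif3c 0.0080 and Etf1 0.0093, median-ratio scaling gave Eef1e1 0.0040 and Etf1 0.00044, and library sizes that leave out mitochondrial genes, Gm26917 and Gm42418 gave Eif2b5 -2.7e-05. With each library left out, log2 fold changes ran from -0.084 to 0.13 for Eef1b2, -0.18 to 0.17 for Eef1e1, -0.0057 to 0.058 for Eif1a, -0.042 to 0.060 for Eif1ad, -0.037 to 0.0099 for Eif2ak1, -0.17 to 0.24 for Eif2ak4, -0.037 to 0.040 for Eif2b5, -0.14 to 0.033 for Eif2s1, -0.12 to 0.080 for Eif3a, -0.089 to 0.076 for Eif3c, -0.079 to 0.044 for Eif3g, -0.065 to 0.094 for Eif4b, -0.13 to 0.043 for Eif4ebp1, -0.21 to 0.099 for Eif5a2, -0.17 to 0.040 for Eif5b and -0.072 to 0.061 for Etf1. The cause was not tested.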
